A study of Mus musculus with 15 samples.

Results

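The genes described here are 35 genes of glycolysis, glycogen metabolism and the response to hypoxia, measured by RNA sequencing in primary astrocytes from mouse brain. They were taken by symbol from the count tables. All 35 were among the 25748 symbols listed, and 34 of them were among the 15362 genes with enough reads to be tested. The 35th, Ankrd37, stayed below that filter.

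The 15 libraries formed 3 groups of 5. The control group is labelled only as control. The LPS group, which the submitters call SCI, was given lipopolysaccharide (LPS), a bacterial cell wall component, at 1 µg/mL, over 6 to 8 h. Rg1 plus LPS cells were pretreated for 12 h with 80 µM of the ginseng saponin Rg1 and then given the same LPS. For the last group the treatment field counts up from Rg1 to Rg5. The titles name 5 replicates of Rg1, and the titles were followed. No group with Rg1 and without LPS was analysed here, so the Rg1 comparisons are all in the presence of LPS. The LPS group is a culture treatment and holds no injured tissue. Strain, age and sex of the mice are not stated in the labels. Nor do they say if each library is its own culture or animal, so p-values measure only the spread between these libraries.

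Glycolysis splits glucose into pyruvate, which is exported as lactate or enters the mitochondria. In the brain it is particularly active in astrocytes, which also hold most of the brain's glycogen and are thought to pass lactate to neurons. The hypoxia-inducible factors, whose alpha subunits are encoded by Hif1a and Epas1, are marked for destruction by prolyl hydroxylases (Egln1, Egln3) when oxygen is present. When stabilised, they bind short DNA elements with the core ACGTG or GCGTG, and many glycolytic genes are among their known targets. LPS and other signals through NF-kB are known to raise Hif1a transcription.

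The core element was looked for on both strands in the 250 bases before the annotated transcription start, in RefSeq promoter sequences of build GRCm38.p6. Of the 35 members, 34 had an entry; Epas1 was not matched. The core was present for 29 of the 34 (85.3%), against 59.2% of the 11949 tested genes with an entry and 41.5% of all 27025 genes in the table. It occurred at 2 or more places in a window for 21 members (61.8%), against 25.7% of the tested genes. A gene with several annotated starts was counted if any of its windows held the core, and the 34 members had 47 windows, of which 37 (78.7%) held it, against 53.2% of the windows of the tested genes. Eno2, Gbe1, Gpi1, Gys1 and Tpi1 had it in none, and Aldoa, Hk1, Pdk1, Pfkm and Pkm in some of their windows but not in all. ACGTG is also part of CACGTG, an element of other factors, which 7 members (20.6%) and 9.42% of the tested genes held. Many members are textbook targets of the hypoxia-inducible factors, so this share is a description of the choice of genes, and a match is not a binding site. Of the 6 tested members with a change of more than 1 on the log2 scale in any comparison below, Eno2 had no core. In the sequences of the other 5 the core is in capitals, as CACGT or CACGC where it lies on the other strand. These 5 are printed 5′ to 3′ on the gene's strand, ending at the base before the start. Their positions are chr19:36736605-36736854 (minus strand) for Ppp1r3c, chr4:119108495-119108744 (plus) for Slc2a1, chr6:82774455-82774704 (minus) for Hk2, chr12:54203875-54204124 (minus) for Egln3 and chr7:110627407-110627656 (plus) for Adm.
Ppp1r3c: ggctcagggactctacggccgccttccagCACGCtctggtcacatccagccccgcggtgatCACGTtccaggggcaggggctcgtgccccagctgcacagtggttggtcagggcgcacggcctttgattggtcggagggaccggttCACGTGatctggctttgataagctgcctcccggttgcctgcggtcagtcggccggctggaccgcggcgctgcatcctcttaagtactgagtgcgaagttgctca
Slc2a1: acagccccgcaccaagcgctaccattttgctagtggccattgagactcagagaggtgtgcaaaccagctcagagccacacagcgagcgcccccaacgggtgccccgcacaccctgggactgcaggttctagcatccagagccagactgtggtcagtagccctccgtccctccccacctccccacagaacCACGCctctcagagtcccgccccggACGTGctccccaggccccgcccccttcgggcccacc
Hk2: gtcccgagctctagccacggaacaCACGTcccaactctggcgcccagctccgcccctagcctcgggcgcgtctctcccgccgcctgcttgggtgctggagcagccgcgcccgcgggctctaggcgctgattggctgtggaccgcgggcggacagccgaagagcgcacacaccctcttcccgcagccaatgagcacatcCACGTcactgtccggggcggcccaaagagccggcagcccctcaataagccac
Egln3: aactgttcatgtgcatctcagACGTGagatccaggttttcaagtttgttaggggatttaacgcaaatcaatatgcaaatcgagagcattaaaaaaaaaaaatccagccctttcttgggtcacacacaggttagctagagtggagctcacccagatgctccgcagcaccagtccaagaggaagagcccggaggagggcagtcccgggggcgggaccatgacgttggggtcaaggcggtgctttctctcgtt
Adm: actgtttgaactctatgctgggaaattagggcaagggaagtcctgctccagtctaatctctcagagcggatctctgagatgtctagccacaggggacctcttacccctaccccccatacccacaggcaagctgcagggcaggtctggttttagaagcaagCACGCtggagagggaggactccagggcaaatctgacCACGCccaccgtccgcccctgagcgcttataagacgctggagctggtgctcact
The Ppp1r3c window held 3 such places, 1 of them within CACGTG. Slc2a1, Hk2 and Adm held 2 each, and Egln3 held 1.

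Counted fragments per library came to 34.2 M to 41.8 M. Normalised read counts are CPM, counts relative to the library size after scaling between libraries, given as mean ± SD over 5 libraries. Levels of different genes are compared only as FPKM, which also divides by gene length. The 8 astrocyte markers all passed the filter, with summed values of 6261 to 8190 CPM in control, 4090 to 7291 under LPS and 4166 to 6565 in Rg1 plus LPS. The 8 fibroblast and mural cell markers summed to 5332 to 6299, 5530 to 8416 and 2716 to 7213 CPM, with Rgs5 and Vtn at only 0.744 and 0.409 CPM on average in control. The 8 microglia and macrophage markers summed to 44.1 to 87.3, 50.3 to 84.1 and 41.1 to 69.3 CPM. The 6 endothelial markers summed to 131 to 158, 166 to 193 and 92.4 to 109 CPM, although the defining Pecam1 and Cldn5 stayed below the filter. The 8 oligodendrocyte-lineage markers gave 313 to 387, 332 to 375 and 321 to 401 CPM with Sox10 and Mog below the filter, and 8 neuronal markers 594 to 631, 519 to 672 and 471 to 688 CPM with Rbfox3 and Snap25 below it. Mitochondrially encoded genes took 2.49% to 2.80% of the counts in control, 1.58% to 2.37% under LPS and 2.77% to 4.98% in Rg1 plus LPS. In bulk RNA, fewer cells of a type and less RNA per cell cannot be told apart, and the part of these differences in the results below was not tested.

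Replicates 1 and 4 of the Rg1 plus LPS group stood apart from the other 3. For 8 of the 34 members both lay above replicates 2, 3 and 5, and for 11 both lay below. Over all tested genes the shares were 22.8% and 25.1%. Their summed fibroblast and mural markers were 2716 and 3696 CPM, below the 4836 to 7213 of the other 3, and their summed astrocyte markers 4166 and 4299 CPM, below 5095 to 6565. Calls that are lost or gained without both are therefore named below. In the LPS group, replicate 3 was the highest library for 18 of 34 members, and its astrocyte markers summed to 7291 CPM, against 4090 to 5472 in the other 4.

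**Figure D1:**
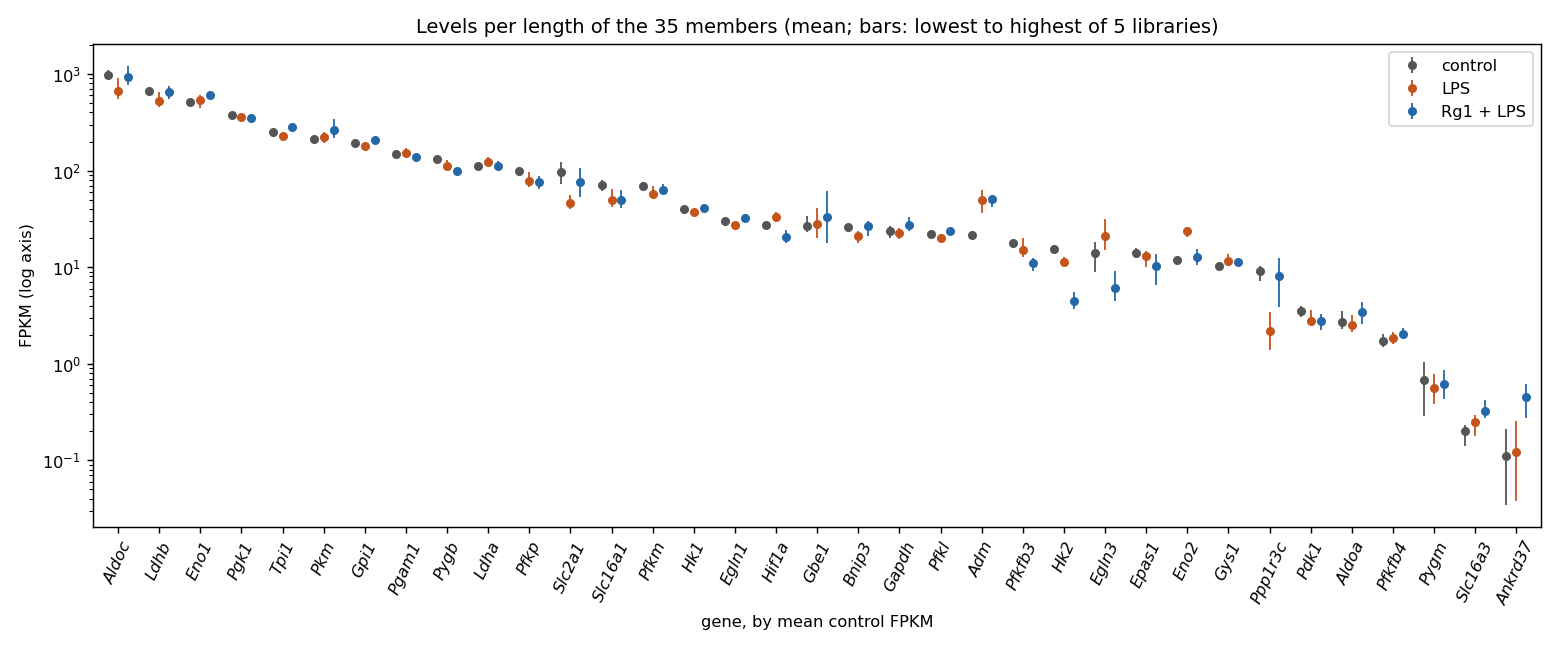
FPKM of the 35 members on a log axis, in order of the control mean; points are means and bars run from the lowest to the highest of 5 libraries in control (grey), LPS (orange) and Rg1 plus LPS (blue). The order runs from Aldoc at 978 FPKM in control to Ankrd37 at 0.111, the Ppp1r3c mean is lowest under LPS (2.19 FPKM), and the Hk2 mean is lowest in Rg1 plus LPS (4.44).

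In control astrocytes the most abundant member per length was Aldoc, the aldolase known as an astrocyte marker in brain, at 978 ± 79.0 FPKM. It was followed by Ldhb (lactate dehydrogenase B, 664 ± 41.3), Eno1 (enolase 1, 510.4 ± 29.1), Pgk1 (381 ± 7.06), Tpi1 (249 ± 9.82) and Pkm (213 ± 14.6). These 6 neighbours did not overlap in control, the closest being the lowest Tpi1 library at 238 FPKM and the highest Pkm library at 230.3. In all, 10 members reached 100 FPKM, and Pygm, Slc16a3 and Ankrd37 stayed under 1. Within some pairs of related genes 1 member held most of the summed FPKM. Aldoc made up 99.7% (median of the control libraries) of aldolases A and C, Pygb, the brain glycogen phosphorylase, 99.5% of Pygb and Pygm, and Slc16a1 (the lactate transporter MCT1) 99.7% of Slc16a1 and Slc16a3 (MCT4). Eno1 made up 97.8% of Eno1 and Eno2, and Ldhb 85.7% of Ldha and Ldhb. Other pairs were more even. Hk1 made up 72.4% of Hk1 and Hk2, Egln1 68.0% of Egln1 and Egln3, and Hif1a 67.3% of Hif1a and Epas1. Gapdh, at 23.5 ± 2.52 FPKM, and Aldoa, at 2.71 ± 0.526, were listed far below the enzymes next to them in the pathway. In GENCODE M21 transcripts, 58.4% of the 50-base windows of Gapdh also occur in other genes, 222 of them, as do 68.0% for Pgk1, 59.1% for Bnip3, 49.5% for Eno1, 41.5% for Pgam1, 24.5% for Gpi1, 23.7% for Pkm and 21.0% for Ldhb. How the authors counted reads with several matches is not stated, so the levels of these genes, and the FPKM shares that use them, are uncertain. For Aldoa 6.57% of the windows were shared with genes of another symbol. Windows shared between entries of the same symbol were not counted for any member. Why Aldoa was listed so low was not tested, and the Aldoc share of 99.7% rests on that level. No window was shared (0) for 12 members, among them Hk2, Aldoc, Adm, Egln3 and Ppp1r3c.

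LPS against control asks what the endotoxin did to these genes. Under LPS, Ppp1r3c, Slc2a1 and Hk2 fell, while Adm, Eno2 and Hif1a rose. Most glycolytic enzymes showed no change past the test. Of the 34 members tested, 11 had an edgeR adjusted p under 0.05, the threshold for a call (32.4%), 3 higher and 8 lower, where 23.7% of all tested genes passed, 13.8% higher and 9.82% lower. For 7 members (20.6%) no control library overlapped the LPS libraries, against 20.4% of all genes. Of the members, 4 also moved by at least 0.58 on the log2 scale (all genes: 9.71%). The median log2 change of the 34 was -0.07, against 0.00 over all genes. Of the 11, 7 kept their call whichever library was left out. Leaving out LPS replicate 1 gave 7 called members, and leaving out LPS replicate 3 gave 17.

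Before the other comparisons, a trend across all genes bears on small changes: with Rg1 plus LPS against LPS the log2 change fell with gene length (Spearman's rho across genes -0.33). The median change was 0.24 for the 25% shortest genes and -0.19 for the 25% longest. With Rg1 plus LPS against control rho was -0.31, and these medians were 0.18 and -0.18. For LPS against control rho was 0.09. Genes are not independent replicates, so no p is given, and calls that removing this trend ends or adds are named.

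Rg1 plus LPS against LPS asks what the pretreatment changed in LPS-treated cells. Hk2, Egln3, Eno2, Hif1a and Pfkfb3 fell and Ppp1r3c rose. In this comparison 15 members passed (44.1%), 5 higher and 10 lower, against 45.4% of all genes, 22.2% higher and 23.2% lower. For 9 (26.5%) the groups did not overlap, against 27.5% of all genes, and 6 also moved by at least 0.58 (all genes: 18.7%). The median change was 0.04, against 0.03 over all genes, and the median size of change regardless of sign was 0.18, against 0.30. The split depended on the scaling: with library size alone, which moved the median of all genes to 0.14, and in the FPKM fits, 12 members were higher and 7 lower. There Hk1, Gpi1, Pfkl, Aldoa, Gapdh, Egln1 and Ldhb were also called, and Epas1, Ldha and Pgk1 were not. Leaving out LPS replicate 3 gave 9 higher and 9 lower. Without Rg1 plus LPS replicates 1 and 4, 4 were higher and 9 lower.

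Rg1 plus LPS against control shows where the pretreated cells ended. Adm was the tested member furthest above control, and Hk2, Egln3, Pfkfb3, Pygb and Hif1a were below it. In all, 13 members passed (38.2%), 2 higher and 11 lower, against 36.9% of all genes, 18.8% higher and 18.1% lower. For 12 (35.3%) the groups did not overlap, against 26.2%, and 5 moved by at least 0.58 (all genes: 12.6%). With library size alone the split was 4 higher and 10 lower. The share of members called was 32.4% against 23.7% of all genes in the first comparison and near that of all genes in the other 2. In the first, the groups did not overlap for 20.6% of members and 20.4% of all genes. Leaving out 1 library gave 7 to 17 called members there. The members were chosen with earlier results of these data known, so these shares only describe them. The LPS libraries enter the first and the second comparison, the control libraries the first and the third, and the Rg1 plus LPS libraries the second and the third, so the values set side by side below are not independent.

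**Figure D2:**
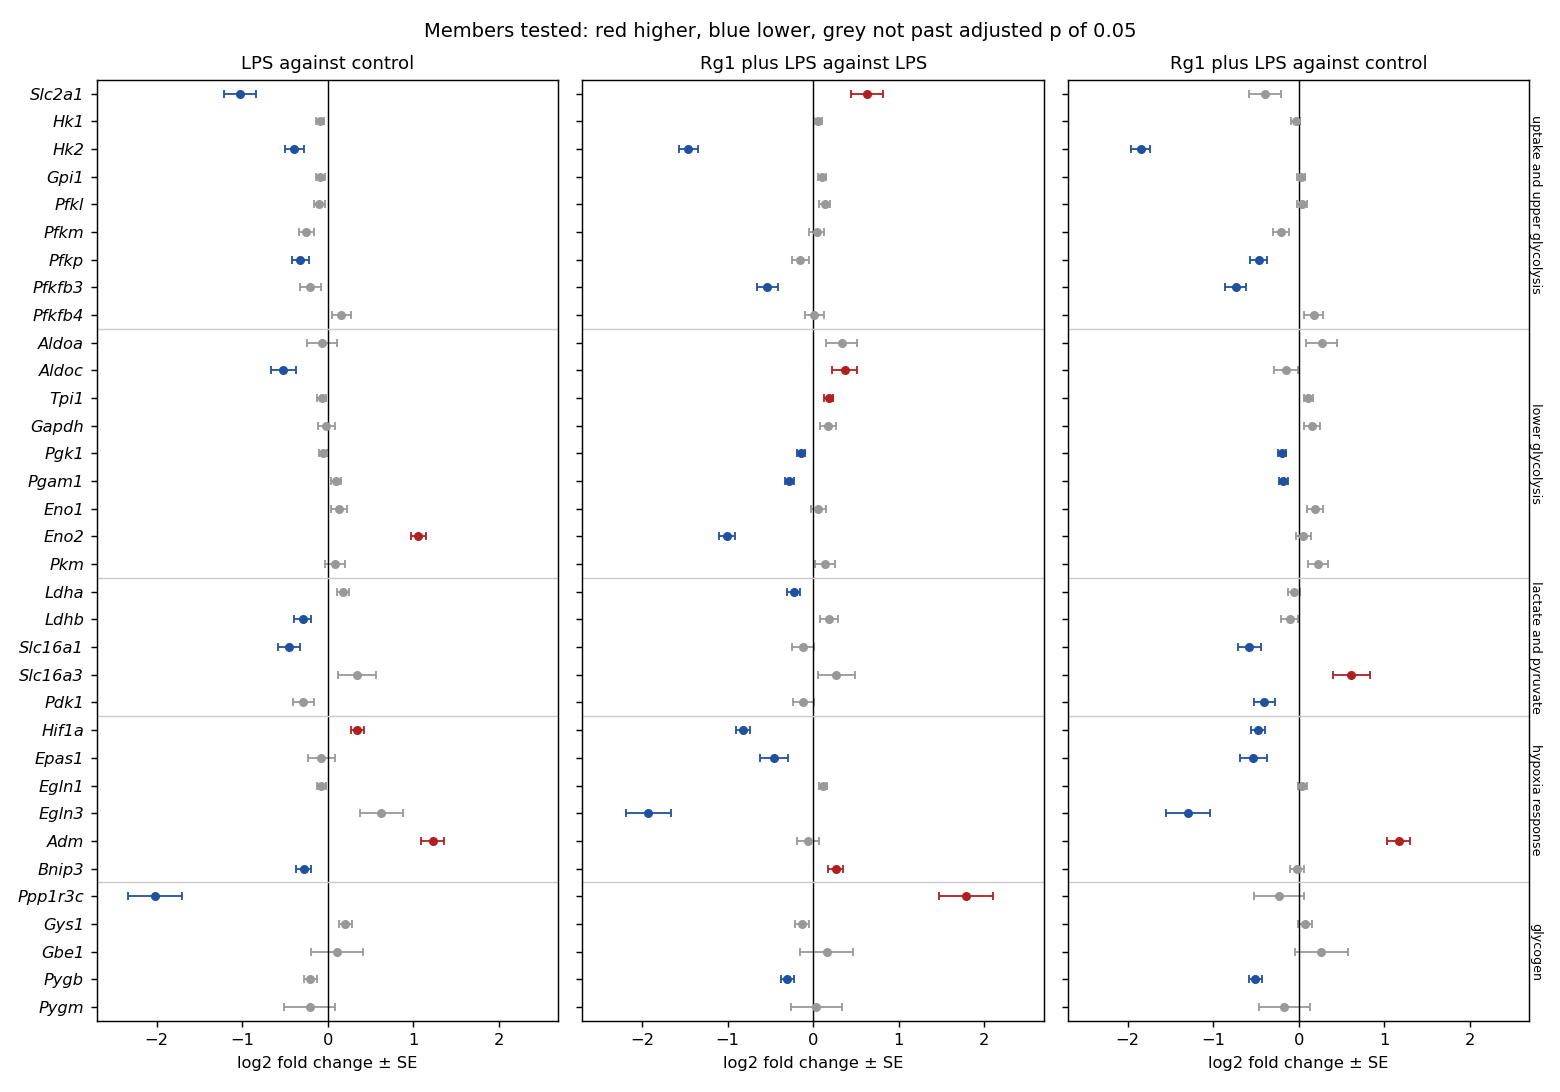
Log2 fold changes ± SE of the 34 tested members in the 3 comparisons, ordered by role; red is higher and blue lower at an adjusted p of 0.05, grey did not pass. The largest changes over the 3 comparisons are those of Ppp1r3c (-2.02 with LPS against control, 1.79 with Rg1 plus LPS against LPS), Egln3 (-1.93 with Rg1 plus LPS against LPS) and Hk2 (-1.85 with Rg1 plus LPS against control), while most of the other enzymes lie within 0.5 of 0.

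In glucose uptake and the first steps of glycolysis, Slc2a1 and Hk2 fell under LPS and Hk2 and Pfkfb3 fell with Rg1 plus LPS. Of 9 tested members, 0 rose and 3 fell under LPS, 1 rose and 2 fell with Rg1 plus LPS against LPS, and 0 rose and 3 fell against control. For these counts, and those of the other pathway steps below, 13.8% of all tested genes were higher and 9.82% lower under LPS. With Rg1 plus LPS the shares were 22.2% and 23.2% against LPS, and 18.8% and 18.1% against control. Slc2a1 encodes the glucose transporter GLUT1. Its control libraries had 268, 196, 237, 255 and 339.8 CPM, the LPS libraries 126, 126, 119, 153 and 113, and the Rg1 plus LPS libraries 274, 146, 171, 256 and 142. Each LPS library lay below each control library. Rg1 plus LPS replicates 1 and 4 were at control levels, and replicates 2, 3 and 5 lay between 142 and 171 CPM, within the range of the LPS libraries or just above it. Slc2a1 fell from 259 ± 52.7 to 127 ± 15.4 CPM under LPS (log2 change -1.02 ± 0.19, adjusted p = 9.02e-04) and was higher, at 198 ± 62.7, with Rg1 plus LPS (0.63 ± 0.19, adjusted p = 0.0116). Without replicates 1 and 4 this second difference was 0.27 (adjusted p = 0.132) and no longer passed, and against control it became -0.76 (adjusted p = 0.00123) from -0.39 ± 0.19, adjusted p = 0.113. Leaving out replicate 1 alone already gave -0.54 against control (adjusted p = 0.0270).

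Hk2 encodes the inducible hexokinase, which phosphorylates glucose at the mitochondrial surface. Its libraries had 90.3, 83.3, 81.6, 103 and 102 CPM in control, 65.5, 66.3, 79.7, 64.6 and 75.7 under LPS and 31.4, 21.2, 24.4, 28.6 and 22.4 in Rg1 plus LPS. The 3 groups did not overlap at all, the highest Rg1 plus LPS library having 31.4 CPM and the lowest of all others 64.6. Hk2 fell from 92.1 ± 10.1 to 70.4 ± 6.86 CPM under LPS (-0.39 ± 0.11, adjusted p = 0.0135) and further to 25.6 ± 4.28 with Rg1 plus LPS (-1.46 ± 0.11, adjusted p = 1.99e-08 against LPS, and -1.85 ± 0.11, adjusted p = 6.48e-09 against control). These calls passed under every setting tried. Hk1, the constitutive hexokinase, was at 219 ± 5.80, 206 ± 7.92 and 214 ± 11.2 CPM and passed no comparison, except with library size alone and in the FPKM fits, where it was lower under LPS and higher with Rg1 plus LPS against LPS, and with the length trend removed (against LPS). The Hk2 share of the summed FPKM of Hk1 and Hk2 went from a median of 27.6% (25.0% to 30.3%) in control to 22.8% (22.1% to 25.1%) under LPS and 9.52% (8.44% to 10.9%) in Rg1 plus LPS.

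Pfkfb3 makes fructose 2,6-bisphosphate, the strongest activator of phosphofructokinase. It had 103, 122, 116, 124 and 105 CPM in control, 84.6, 106, 136, 83.3 and 86.4 under LPS and 69.1, 67.0, 76.1, 71.8 and 58.0 in Rg1 plus LPS. LPS replicate 3 was the highest of all libraries, and all Rg1 plus LPS libraries lay below all others. The LPS difference did not pass (-0.20 ± 0.12, adjusted p = 0.241), except without LPS replicate 3 (-0.35, adjusted p = 0.0118). Rg1 plus LPS was lower than LPS (-0.54 ± 0.12, adjusted p = 0.00178) and than control (-0.74 ± 0.12, adjusted p = 2.05e-04). Its relative Pfkfb4 stayed between 7.26 and 11.1 CPM in all 15 libraries and passed no comparison, and its share of the summed FPKM of both had medians of 8.58%, 11.1% and 15.9%.

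Phosphofructokinase itself moved less. Pfkp, the platelet-type subunit and the most abundant of the 3 per length, had 448 ± 31.7, 359 ± 57.3 and 324 ± 39.6 CPM, and was lower than control in both treated groups (-0.32 ± 0.10, adjusted p = 0.0328 for LPS, and -0.47 ± 0.10, adjusted p = 0.00202 for Rg1 plus LPS). The LPS call was lost when any 1 of control replicates 2, 3 or 4 or LPS replicates 1, 2 or 4 was left out (adjusted p = 0.0604 to 0.0908). Pfkm, the muscle-type subunit, was at 233 ± 15.2, 196 ± 28.4 and 202 ± 19.6 CPM and did not pass (-0.25 ± 0.09, adjusted p = 0.0572 for LPS), although it did with DESeq2, with limma voom, with library size alone, and once LPS replicate 3 or replicate 1 or 3 of Rg1 plus LPS was dropped (adjusted p = 0.00435 to 0.0478 in these last 3), or replicates 1 and 4 of Rg1 plus LPS together (adjusted p = 0.0380). It also passed against control in Rg1 plus LPS without LPS replicate 3 (-0.21, adjusted p = 0.0347). Pfkl, the liver-type subunit, and Gpi1, which turns glucose 6-phosphate into fructose 6-phosphate, passed no comparison in the fit of all libraries. Pfkl was higher with Rg1 plus LPS than with LPS once LPS replicate 3 or replicate 2 of Rg1 plus LPS was dropped (adjusted p = 0.00778 to 0.0491) and with the length trend removed (0.16, adjusted p = 0.0443), and Gpi1 without control replicate 4, LPS replicate 3 or Rg1 plus LPS replicate 2 (adjusted p = 0.0352 to 0.0491). Gpi1 also passed in that comparison with DESeq2, and both genes did with a stricter filter of at least 1 CPM in 5 libraries. With library size alone and in the FPKM fits Gpi1 was lower under LPS. Pfkl was also lower under LPS without LPS replicate 3 (-0.15, adjusted p = 0.0396). Pfkl ranged from 75.9 to 96.7 CPM over the 15 libraries and Gpi1 from 517 to 603.

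**Figure D3:**
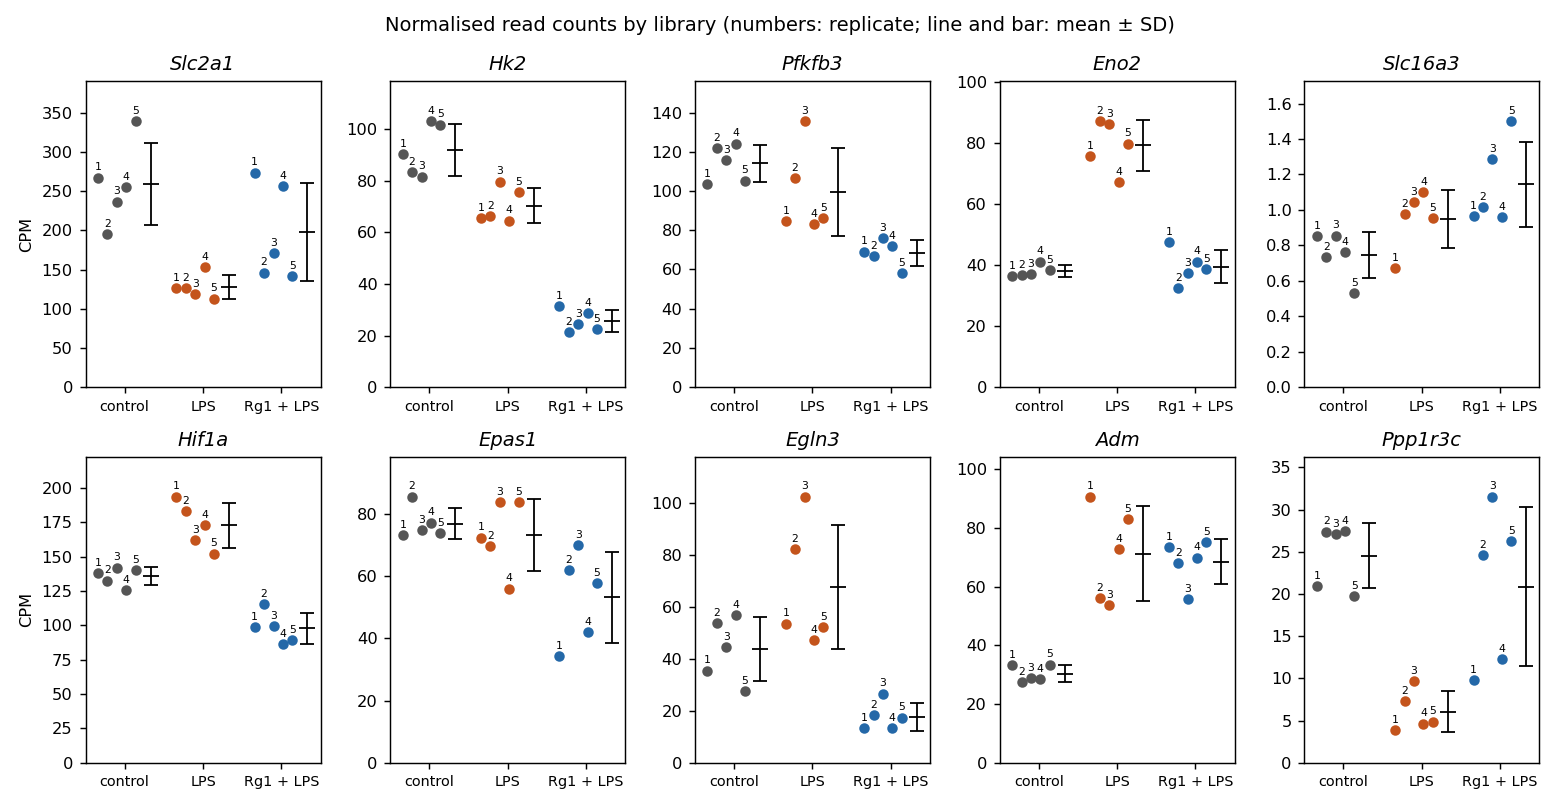
CPM in every library of the 10 members with the largest changes or central roles; numbers beside the points are replicates, and the bar beside each group is the mean ± SD. Hk2 and Pfkfb3 are lowest in the 5 Rg1 plus LPS libraries, Ppp1r3c and Slc2a1 fall in all 5 LPS libraries, and Rg1 plus LPS replicates 1 and 4 part from the others for Slc2a1, Epas1 and Ppp1r3c.

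In lower glycolysis, from aldolase to pyruvate kinase, 1 of 9 members rose and 1 fell under LPS, 2 rose and 3 fell with Rg1 plus LPS against LPS, and 0 rose and 2 fell against control. Eno2, the enolase best known from neurons, was the one that rose. It had 36.5, 36.7, 37.1, 41.2 and 38.4 CPM in control, 75.7, 87.3, 86.4, 67.2 and 79.9 under LPS and 47.6, 32.6, 37.5, 41.1 and 38.7 in Rg1 plus LPS. The LPS libraries lay above all others, and the other 2 groups overlapped. Eno2 rose from 38.0 ± 1.93 to 79.3 ± 8.26 CPM (1.06 ± 0.09, adjusted p = 1.97e-07) and was back at 39.5 ± 5.48 with Rg1 plus LPS (-1.01 ± 0.09, adjusted p = 2.14e-07), with no difference from control past the test (0.06 ± 0.09, adjusted p = 0.660). Eno2 made up 3.74% of the summed FPKM of Eno1 and Eno2 under LPS (median; 2.22% in control, 1.99% with Rg1 plus LPS). Of the 8 neuronal markers 6 were tested. Under LPS 0 of them rose and 2 fell, against 13.8% and 9.82% of all genes. With Rg1 plus LPS against LPS, 1 rose and 0 fell, against 22.2% and 23.2%. The summed medians of the 8 were 607, 570 and 622 CPM in control, LPS and Rg1 plus LPS. Stmn2, with means of 434, 445 and 440 CPM, made up most of these sums. The part of neuronal cells in the Eno2 changes was not tested.

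Aldoc, by far the most abundant member, had 2631, 2762, 2866, 3183 and 2688 CPM in control, 1635, 2206, 2719, 1609 and 1692 under LPS and 2115, 2566, 3290.1, 2245 and 2529 in Rg1 plus LPS. LPS replicate 3 lay among the controls and the other 4 LPS libraries below them. The fall under LPS passed (-0.52 ± 0.14, adjusted p = 0.0157). The rise with Rg1 plus LPS against LPS (0.37 ± 0.14, adjusted p = 0.0468) was lost in 10 of the 15 fits that left out 1 library (adjusted p = 0.0521 to 0.127 without control replicates 1, 2, 3 or 5, LPS replicates 1, 4 or 5, or Rg1 plus LPS replicates 2, 3 or 5) and when the length trend was removed (adjusted p = 0.115). Summed astrocyte markers had medians of 6762, 4170 and 5095 CPM, but their ranges under LPS (4090 to 7291) and in Rg1 plus LPS (4166 to 6565) overlapped. Of the 8 markers, 0 rose and 4 fell under LPS, against 13.8% and 9.82% of all genes. With Rg1 plus LPS against LPS, 3 rose and 1 fell, against 22.2% and 23.2%. The part of these markers in the Aldoc changes was not tested.

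The remaining lower steps changed by small amounts. Tpi1, triose phosphate isomerase, was at 368 ± 13.5, 350.1 ± 19.1 and 397 ± 15.1 CPM and rose with Rg1 plus LPS against LPS (0.18 ± 0.05, adjusted p = 0.00859), but the change was -0.03 once the trend with gene length was removed. Pgk1, phosphoglycerate kinase, was at 699 ± 10.7, 673 ± 32.3 and 612 ± 8.61 CPM and fell with Rg1 plus LPS (-0.14 ± 0.05, adjusted p = 0.0254 against LPS, and -0.19 ± 0.05, adjusted p = 0.00495 against control). The first of these calls was lost without control replicate 4, LPS replicate 5 or Rg1 plus LPS replicates 2, 3, 4 or 5 (adjusted p = 0.0534 to 0.0851), and with library size alone (-0.03, adjusted p = 0.641). Pgam1, phosphoglycerate mutase, was at 272 ± 3.41, 292 ± 22.3 and 241 ± 12.2 CPM and fell in the same 2 comparisons (-0.28 ± 0.06, adjusted p = 7.66e-04, and -0.18 ± 0.06, adjusted p = 0.0201), the second of which was lost without Rg1 plus LPS replicate 3 and with library size alone (adjusted p = 0.119). Pgk1 and Pgam1 share many windows with other genes, as given above.

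Aldoa, Gapdh, Eno1 and Pkm passed no comparison in the fit of all libraries. Aldoa ranged from 4.01 to 7.68 CPM and Gapdh from 35.8 to 56.8. Eno1 ranged from 931 to 1287 CPM, and its highest libraries were Rg1 plus LPS replicates 4 and 1. Without Rg1 plus LPS replicate 3 Eno1 passed against control (0.24, adjusted p = 0.0441). Pkm, pyruvate kinase, had 1507 to 1808 CPM in control, 1564 to 1972 under LPS and 2490.1, 1619, 1585, 2204 and 1737 in Rg1 plus LPS, where replicates 1 and 4 again lay above the other 3. With the length trend removed Pkm passed in both Rg1 comparisons (adjusted p = 0.0302 against LPS and 0.0204 against control).

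In lactate and pyruvate handling, 0 of 5 members rose and 2, Ldhb and Slc16a1, fell under LPS. With Rg1 plus LPS, 0 rose and 1 fell against LPS, and 1 rose and 2 fell against control. Ldhb, the lactate dehydrogenase subunit of tissues that use lactate, was at 871 ± 51.2, 711 ± 112 and 810.3 ± 103 CPM. It fell under LPS (-0.29 ± 0.10, adjusted p = 0.0482), a call lost without control replicates 2, 3, 4 or 5, LPS replicates 1, 2, 4 or 5 or Rg1 plus LPS replicate 2 (adjusted p = 0.0531 to 0.120) and with the length trend removed (adjusted p = 0.0578). It rose with Rg1 plus LPS against LPS without LPS replicate 3 (0.29, adjusted p = 0.0115) and without Rg1 plus LPS replicates 1 and 4 (0.31, adjusted p = 0.0277). With the length trend removed it was lower in Rg1 plus LPS than in control (-0.30, adjusted p = 0.0211). Ldha, the subunit of tissues that make lactate, was at 596 ± 25.0, 674 ± 60.8 and 575 ± 52.0 CPM, with no change past the test under LPS (0.18 ± 0.07, adjusted p = 0.0885). It fell with Rg1 plus LPS against LPS (-0.23 ± 0.07, adjusted p = 0.0167), but not without Rg1 plus LPS replicate 3 (adjusted p = 0.0513), without replicates 1 and 4 (adjusted p = 0.0882), with library size alone (adjusted p = 0.154) or with the length trend removed (adjusted p = 0.195). The Ldha share of the summed FPKM of Ldha and Ldhb had medians of 14.3% in control (13.4% to 16.2%), 19.8% in LPS (15.2% to 21.1%) and 15.3% in Rg1 plus LPS (12.4% to 15.8%).

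Slc16a1, the lactate transporter MCT1, fell from 314 ± 37.2 CPM in control to 229 ± 41.8 in LPS (-0.45 ± 0.13, adjusted p = 0.0185) and was at 211 ± 37.3 in Rg1 plus LPS (-0.58 ± 0.13, adjusted p = 0.00276 against control). The LPS call did not hold without LPS replicate 1 (adjusted p = 0.0516). Slc16a3, the transporter MCT4 that exports lactate from strongly glycolytic cells, was near 1 CPM throughout. Its libraries had 0.852, 0.732, 0.855, 0.761 and 0.533 CPM in control, 0.672, 0.976, 1.04, 1.10 and 0.952 under LPS and 0.966, 1.02, 1.29, 0.958 and 1.50 in Rg1 plus LPS. All Rg1 plus LPS libraries lay above all controls, and the LPS libraries overlapped both. The difference between Rg1 plus LPS and control (0.62 ± 0.22, adjusted p = 0.0354) was lost without control replicates 2, 4 or 5 or Rg1 plus LPS replicates 3 or 5 (adjusted p = 0.0549 to 0.0894), and without the filter (adjusted p = 0.0979). Pdk1, which inhibits pyruvate dehydrogenase and so holds pyruvate back from the mitochondria, was at 22.0 ± 2.25, 18.0 ± 3.10 and 16.6 ± 2.60 CPM. It was lower with Rg1 plus LPS than in control (-0.40 ± 0.12, adjusted p = 0.0171), but not without Rg1 plus LPS replicate 4 (adjusted p = 0.0544), without replicates 1 and 4 (adjusted p = 0.129) or with the length trend removed (adjusted p = 0.0897). Under LPS it fell only in the fit without LPS replicate 3 among those leaving out 1 library (-0.41, adjusted p = 0.0109).

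**Figure D4:**
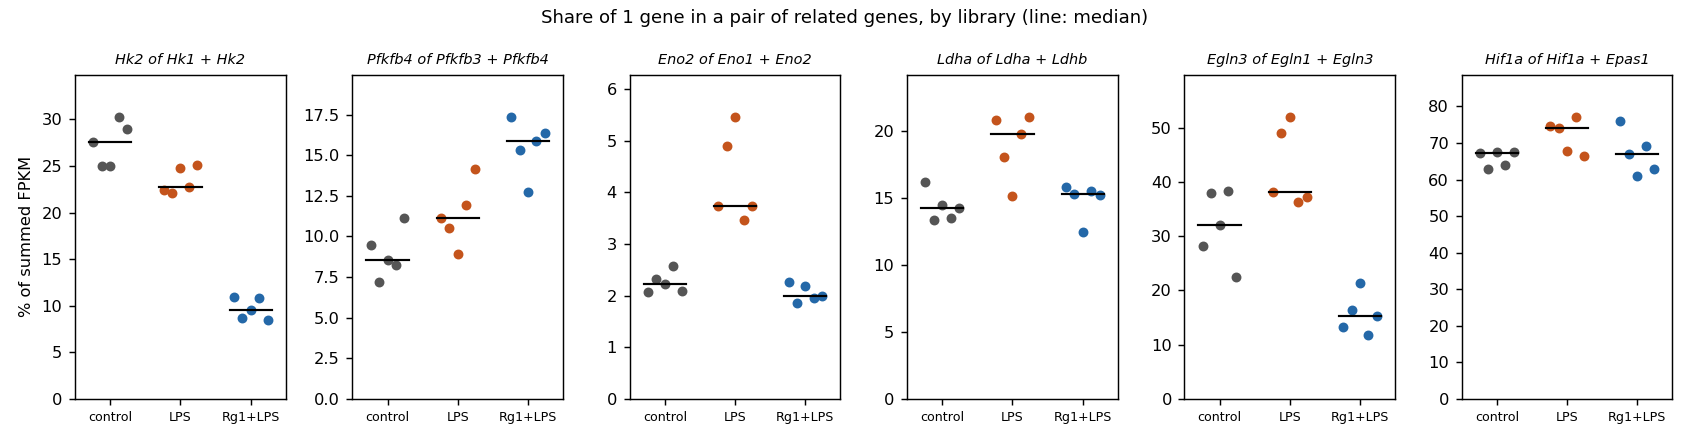
Share of 1 gene in the summed FPKM of a pair of related genes, in percent, for each library of the 3 groups; lines are medians. Hk2 and Egln3 hold the smallest shares in the 5 Rg1 plus LPS libraries, and the Eno2 share is raised in the 5 LPS libraries only.

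Among the genes of the hypoxia response, Hif1a and its target Adm rose under LPS, and Hif1a, Epas1 and Egln3 were lower in Rg1 plus LPS than in either other group. Of 6 tested members, 2 rose and 1 fell under LPS, 1 rose and 3 fell with Rg1 plus LPS against LPS, and 1 rose and 3 fell against control. Hif1a, the oxygen-sensitive subunit of HIF-1, had 138, 133, 142, 126 and 140.4 CPM in control, 194, 183, 162, 173 and 152 under LPS and 98.8, 115, 99.7, 86.2 and 89.2 in Rg1 plus LPS. The 3 groups did not overlap: LPS was highest and Rg1 plus LPS lowest. Hif1a rose from 136 ± 6.70 to 173 ± 16.5 CPM under LPS (0.35 ± 0.08, adjusted p = 0.00439) and was at 97.8 ± 11.4 with Rg1 plus LPS (-0.82 ± 0.08, adjusted p = 5.19e-07 against LPS, and -0.47 ± 0.08, adjusted p = 2.61e-04 against control). All 3 calls passed under every setting tried. HIF-1alpha is regulated mainly as a protein, which was not measured.

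Epas1 encodes HIF-2alpha. Its libraries had 73.2, 85.6, 74.9, 77.2 and 73.9 CPM in control, 72.4, 69.6, 83.9, 56.0 and 83.9 under LPS and 34.3, 61.9, 70.0, 42.1 and 57.8 in Rg1 plus LPS. Control and LPS overlapped, and Rg1 plus LPS replicates 1 and 4 were the lowest of all 15. Epas1 did not pass under LPS (-0.07 ± 0.16, adjusted p = 0.774) and was lower with Rg1 plus LPS (-0.46 ± 0.16, adjusted p = 0.0280 against LPS, and -0.53 ± 0.16, adjusted p = 0.0164 against control). Without replicates 1 and 4 neither passed (-0.20, adjusted p = 0.155, and -0.28, adjusted p = 0.0658). The first was also lost without LPS replicates 3 or 5 or Rg1 plus LPS replicate 4 alone (adjusted p = 0.0599 to 0.0808), with library size alone (-0.34, adjusted p = 0.0825) and with the length trend removed (-0.35, adjusted p = 0.0937). The Hif1a share of the summed FPKM of both genes had medians of 67.3% in control, 74.2% under LPS and 67.1% in Rg1 plus LPS.

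Egln3, a prolyl hydroxylase that is itself a target of the hypoxia-inducible factors, had 35.4, 53.8, 44.4, 56.9 and 27.7 CPM in control, 53.5, 82.3, 102, 47.3 and 52.3 under LPS and 13.3, 18.2, 26.6, 13.3 and 17.4 in Rg1 plus LPS. Every Rg1 plus LPS library was below every other, and control and LPS overlapped. The mean was 67.5 ± 23.8 CPM in LPS against 43.6 ± 12.2 in control, which did not pass with edgeR (0.63 ± 0.25, adjusted p = 0.0826) but did with DESeq2 (adjusted p = 0.0411). It fell to 17.8 ± 5.42 CPM with Rg1 plus LPS (-1.93 ± 0.26, adjusted p = 2.61e-05 against LPS, and -1.30 ± 0.26, adjusted p = 0.00117 against control). Egln1, the main oxygen-sensing hydroxylase, stayed between 97.4 and 117 CPM and passed no comparison in the fit of all libraries, but was higher with Rg1 plus LPS than with LPS once LPS replicate 3 or replicate 1 of Rg1 plus LPS was dropped (adjusted p = 0.0215 to 0.0282). The Egln3 share of the summed FPKM of Egln1 and Egln3 had medians of 32.0%, 38.1% and 15.3%.

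Adm encodes the vasodilator peptide adrenomedullin. It had 33.4, 27.6, 28.9, 28.7 and 33.5 CPM in control, 90.7, 56.2, 53.6, 72.7 and 83.1 under LPS and 73.5, 67.9, 55.7, 69.9 and 75.2 in Rg1 plus LPS. All LPS and Rg1 plus LPS libraries lay above all controls. Adm rose from 30.4 ± 2.82 to 71.3 ± 16.3 CPM under LPS (1.23 ± 0.13, adjusted p = 3.63e-06) and was at 68.5 ± 7.67 with Rg1 plus LPS, a difference of -0.06 ± 0.13, adjusted p = 0.745 from LPS and of 1.17 ± 0.13, adjusted p = 7.09e-06 from control. Adm was above control in the group in which Hif1a mRNA was lowest, and the part of Hif1a in the Adm level was not tested. Bnip3, a mitophagy receptor, was at 46.0 ± 1.88, 37.8 ± 4.05 and 45.4 ± 5.33 CPM. It fell under LPS (-0.28 ± 0.09, adjusted p = 0.0249) and rose with Rg1 plus LPS against LPS (0.26 ± 0.09, adjusted p = 0.0195). The first call was lost without control replicates 2, 3 or 4 or LPS replicates 1 or 5 (adjusted p = 0.0534 to 0.0766) or with the length trend removed (adjusted p = 0.0668). The second was lost without LPS replicate 5 (adjusted p = 0.0588) or without Rg1 plus LPS replicates 1 and 4 (adjusted p = 0.0920), and fell to 0.09 (adjusted p = 0.502) with the length trend removed. Ankrd37, a small target of HIF-1, had 16 counts in the 5 control libraries, 18 under LPS and 68 in Rg1 plus LPS, or 0.0864 ± 0.0601, 0.0977 ± 0.0660 and 0.338 ± 0.0992 CPM. In a fit without the filter it was higher with Rg1 plus LPS than with LPS (1.74 ± 0.54, adjusted p = 0.0193) and than in control (1.90 ± 0.55, adjusted p = 0.0162).

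In glycogen metabolism 1 gene, Ppp1r3c, moved strongly. Of 5 members, 0 rose and 1 fell under LPS, 1 rose and 1 fell with Rg1 plus LPS against LPS, and 0 rose and 1 fell against control. Ppp1r3c encodes PTG, which brings protein phosphatase 1 to glycogen and so favours glycogen synthesis. It had 20.9, 27.4, 27.1, 27.5 and 19.8 CPM in control, 3.87, 7.27, 9.71, 4.66 and 4.88 under LPS and 9.76, 24.6, 31.5, 12.3 and 26.3 in Rg1 plus LPS. All LPS libraries were below all others, the margin to Rg1 plus LPS being 9.71 against 9.76 CPM. Rg1 plus LPS replicates 2 and 5 lay among the controls and replicate 3 above them, with replicates 1 and 4 between the 2 other groups. Ppp1r3c fell from 24.5 ± 3.85 to 6.08 ± 2.39 CPM under LPS (-2.02 ± 0.31, adjusted p = 2.17e-04) and was at 20.9 ± 9.41 with Rg1 plus LPS (1.79 ± 0.31, adjusted p = 2.74e-04), with no difference from control past the test (-0.23 ± 0.30, adjusted p = 0.574). Without replicates 1 and 4 the difference from LPS was 2.19 (adjusted p = 6.68e-06).

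Gys1, glycogen synthase, was at 38.3 ± 1.68, 44.2 ± 5.58 and 40.3 ± 3.35 CPM and passed no comparison, although the LPS difference (0.21 ± 0.08, adjusted p = 0.0733) did so without LPS replicates 2 or 3 (adjusted p = 0.0369 to 0.0477). Gbe1, the branching enzyme, spread widely in the Rg1 plus LPS group, with 177, 58.1, 59.3, 131 and 52.3 CPM. Replicates 1 and 4 exceeded every other library of the study. The controls had 82.6, 68.2, 72.3, 69.6 and 104 CPM and the LPS libraries 92.5, 78.7, 62.8, 123 and 71.6. Against LPS the difference of Rg1 plus LPS was 0.16 ± 0.31, adjusted p = 0.707, and without replicates 1 and 4 it turned to -0.59 (adjusted p = 0.0222). Pygb, the brain glycogen phosphorylase that releases glucose from glycogen, was at 514 ± 25.4, 446 ± 46.5 and 362 ± 31.2 CPM. It was lower with Rg1 plus LPS than with LPS (-0.30 ± 0.08, adjusted p = 0.00395) and than in control (-0.51 ± 0.08, adjusted p = 8.96e-05), under every setting tried. The LPS difference did not pass (-0.21 ± 0.08, adjusted p = 0.0595) but did with DESeq2 and without control replicate 5, LPS replicate 3 or Rg1 plus LPS replicates 1 or 5 (adjusted p = 0.00673 to 0.0475), without Rg1 plus LPS replicates 1 and 4 together (adjusted p = 0.0331) and with the length trend removed (adjusted p = 0.0493). Pygm, the muscle phosphorylase, stayed between 0.841 and 2.99 CPM with no change past the test.

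**Figure D5:**
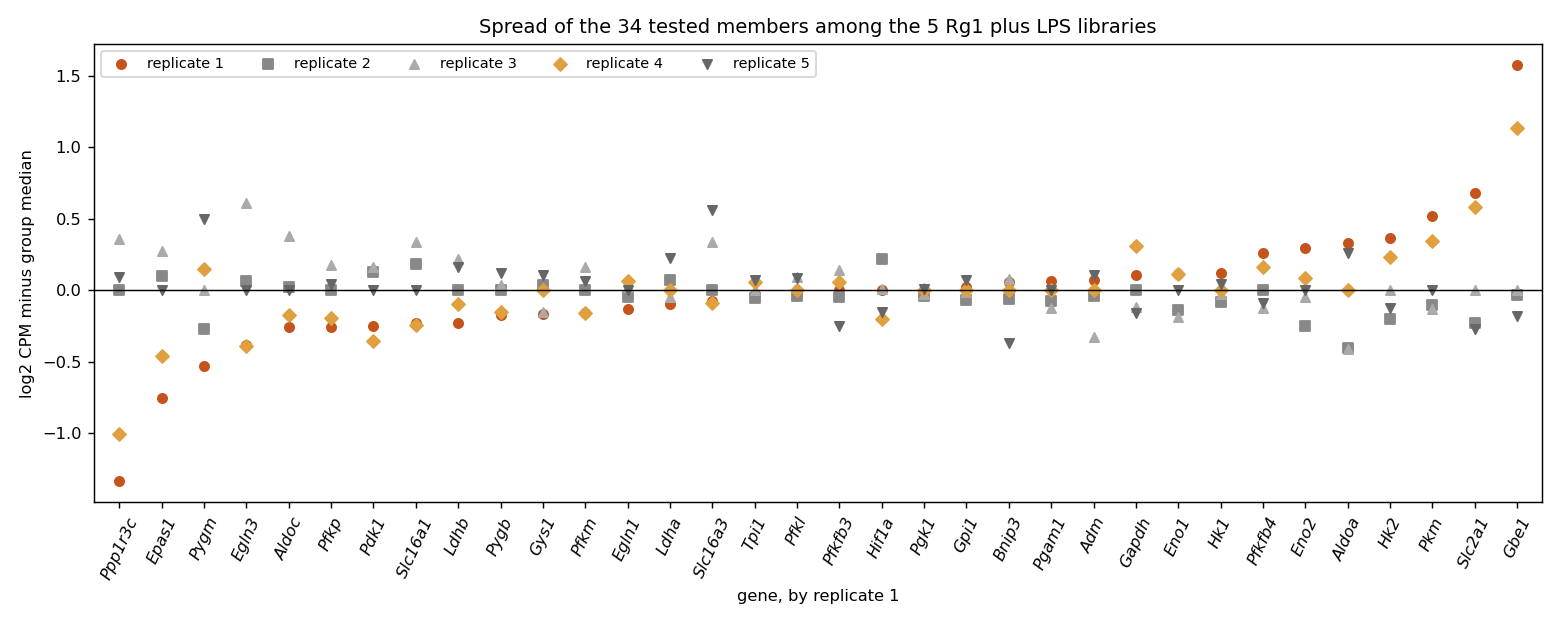
Log2 CPM of the 34 tested members in each Rg1 plus LPS library, minus the median of the 5 libraries, ordered by replicate 1. Replicates 1 (dark orange circles) and 4 (light orange diamonds) depart together from the other 3 at both ends, downwards for Ppp1r3c and Epas1 and upwards for Gbe1 and Slc2a1.

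Genes of the same pathways outside the 35 were read from 6 lists with 93 symbols, of which 92 were found and 81 tested. The counts of these lists stand beside 13.8% of all tested genes higher and 9.82% lower under LPS. With Rg1 plus LPS the shares of all genes were 22.2% and 23.2% against LPS, and 18.8% and 18.1% against control. Among 11 further glycolytic genes, 1 rose and 2 fell under LPS, 1 rose and 3 fell with Rg1 plus LPS against LPS, and 0 rose and 4 fell against control. Slc2a3, the neuronal-type glucose transporter GLUT3, fell from 17.4 ± 0.876 to 10.8 ± 1.31 CPM under LPS (-0.70 ± 0.15, adjusted p = 0.00328). Hk3, a hexokinase of white blood cells, was at 0.492 ± 0.424 CPM in control, 1.21 ± 0.198 under LPS and 0.0994 ± 0.0872 in Rg1 plus LPS (-3.56 ± 0.54, adjusted p = 6.04e-05 against LPS, and -2.26 ± 0.56, adjusted p = 0.00498 against control). Its higher level under LPS (1.30 ± 0.46, adjusted p = 0.0487) was lost in 11 of the 15 fits without 1 library. It was also lost without Rg1 plus LPS replicates 1 and 4 (adjusted p = 0.0525) and with the length trend removed (adjusted p = 0.0516). Of the 8 microglia and macrophage markers, Csf1r (5.96 to 1.31 CPM), Itgam (3.65 to 0.549) and Ctss (11.8 to 2.79) fell with Rg1 plus LPS against LPS and 0 rose. The other 5 did not pass, with Tmem119 at 28.4 CPM under LPS and higher on average in Rg1 plus LPS, Cd68 at 12.2 and 10.7 CPM, and Cx3cr1, P2ry12 and Aif1 under 1 CPM on average. The summed medians of the 8 were 57.2 and 53.6 CPM, and their part in the Hk3 difference was not tested. Bpgm, which makes 2,3-bisphosphoglycerate, fell under LPS (-0.40 ± 0.09, adjusted p = 0.00402) and was as low with Rg1 plus LPS (-0.38 against control). Pfkfb1 (-1.39) and Pfkfb2 (-0.21), relatives of Pfkfb3, were lower with Rg1 plus LPS than with LPS on the log2 scale, the Pfkfb2 call being lost in 14 of the 15 fits without 1 library, without replicates 1 and 4 (adjusted p = 0.217) and with the length trend removed (0.012). The higher Slc2a3 with Rg1 plus LPS against LPS (0.40 ± 0.15, adjusted p = 0.0429) fell to 0.07 without replicates 1 and 4 (adjusted p = 0.570).

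At the entry of pyruvate into the mitochondria, 1 of 13 genes rose and 5 fell under LPS, 3 rose and 4 fell with Rg1 plus LPS against LPS, and 0 rose and 5 fell against control. Pdp1, the phosphatase that activates pyruvate dehydrogenase, fell from 81.6 ± 5.75 to 35.1 ± 6.31 CPM under LPS (-1.22 ± 0.18, adjusted p = 1.37e-04) and was at 59.5 ± 18.8 with Rg1 plus LPS (0.76 ± 0.18, adjusted p = 0.00290). Pdk4, a kinase that inhibits the same enzyme, fell from 63.4 ± 2.91 to 34.8 ± 3.66 CPM under LPS (-0.87 ± 0.10, adjusted p = 7.55e-06) and remained low with Rg1 plus LPS (-0.95 ± 0.10, adjusted p = 3.57e-06 against control). Pdha1, the catalytic subunit, was lower with Rg1 plus LPS than in control (-0.33 ± 0.05, adjusted p = 2.30e-04). Pdp2, a second phosphatase, was lower in LPS than in control (-0.44) and lower still with Rg1 plus LPS (-0.80 against control). Against LPS, Mpc2 of the pyruvate carrier (0.30) and Pdk2 (0.35) rose with Rg1 plus LPS, and Pcx, pyruvate carboxylase (-0.33), and Pdk3 (-0.36) fell. Pdhx, which binds a subunit of the complex, rose under LPS (0.23). The Pcx, Pdk3 and Pdp2 calls against LPS were lost without replicates 1 and 4 (adjusted p = 0.0861, 0.0696 and 0.0639). The Mpc2 change turned to -0.018 with the length trend removed, and the Pdk2, Pdk3 and Pdp2 calls against LPS were lost (adjusted p = 0.124, 0.382 and 0.0715). The phosphatase that activates the complex and a kinase that inhibits it thus both fell under LPS.

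Of 21 further glycogen genes, 2 rose and 5 fell under LPS, 6 rose and 6 fell with Rg1 plus LPS against LPS, and 2 rose and 6 fell against control. Pgm2, a phosphoglucomutase, was lower in both treated groups than in control (-0.65 ± 0.07, adjusted p = 2.66e-06, and -0.83 ± 0.07, adjusted p = 2.42e-07). Ugp2, which makes UDP-glucose for glycogen synthesis, fell under LPS (-0.36 ± 0.08, adjusted p = 0.00298), as did Ppp1r3d, a relative of Ppp1r3c (-0.81 ± 0.20, adjusted p = 0.00620). With Rg1 plus LPS, Phkg2, a catalytic subunit of phosphorylase kinase, rose against LPS (0.59 ± 0.06, adjusted p = 1.26e-06), and Gsk3b, a kinase that inhibits glycogen synthase, fell (-0.46 ± 0.07, adjusted p = 1.02e-04). Gyg, the primer of glycogen (0.21), and Ppp1r3f (0.40) rose in that comparison, and the lysosomal Gaa (-0.21) fell. With the length trend removed Gyg was at 0.022. Against control Phkb, a subunit of phosphorylase kinase (-0.33, and -0.15 with adjusted p = 0.0769 with the trend removed), was lower and Phkg2 (0.44) and Ppp1r3f (0.40) higher. Under LPS, Gaa (0.20) and Gsk3a (0.20) rose, the Gsk3a call being lost in 8 of the 15 fits without 1 library.

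Of 5 regulators of the hypoxia-inducible factors, 1 rose and 0 fell under LPS, and 1 rose and 3 fell with Rg1 plus LPS against both LPS and control. The partner subunit gene Arnt fell from 54.6 ± 2.30 to 39.6 ± 1.46 CPM (-0.46 ± 0.05, adjusted p = 3.50e-06 against LPS), Arnt2 from 385 ± 15.5 to 317 ± 8.11 (-0.28 ± 0.05, adjusted p = 1.15e-04), and Hif1an, the asparagine hydroxylase that inhibits HIF, from 37.0 ± 2.45 to 27.0 ± 2.01 (-0.46 ± 0.08, adjusted p = 2.00e-04). Egln2, another prolyl hydroxylase, rose (0.27 ± 0.06, adjusted p = 0.00132). Against control Arnt (-0.35), Arnt2 (-0.34) and Hif1an (-0.21) were lower and Egln2 (0.28) higher. The regulator that rose under LPS was Hif1an (0.25). The 2 Hif1an calls against control were lost in 6 and 10 of the 15 fits without 1 library. Both were also lost with the length trend removed (adjusted p = 0.0516 and 0.401), as was the Arnt2 call against LPS (adjusted p = 0.0736).

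Of 24 further known targets, 3 rose and 6 fell under LPS, 6 rose and 8 fell with Rg1 plus LPS against LPS, and 2 rose and 7 fell against control. The targets moved in both directions, as did all tested genes (22.2% higher and 23.2% lower with Rg1 plus LPS against LPS). P4ha2, a collagen prolyl hydroxylase, rose from 43.4 ± 3.62 to 80.1 ± 11.8 CPM under LPS (0.88 ± 0.15, adjusted p = 3.84e-04) and was at 39.4 ± 10.2 with Rg1 plus LPS (-1.02 ± 0.15, adjusted p = 4.49e-05). Hilpda, a lipid droplet protein induced by hypoxia, fell from 24.9 ± 3.99 to 8.60 ± 0.781 CPM under LPS (-1.53 ± 0.13, adjusted p = 1.94e-07) and was also low with Rg1 plus LPS (-1.65 ± 0.13, adjusted p = 1.69e-07 against control). Zfp395 fell from 9.81 ± 1.07 to 3.53 ± 0.487 CPM (-1.47 ± 0.15, adjusted p = 1.92e-06) and was at 10.5 ± 2.37 with Rg1 plus LPS (1.58 ± 0.15, adjusted p = 4.84e-07). Vegfa, the vascular growth factor, was lower with Rg1 plus LPS than in control (101 ± 27.2 to 50.1 ± 13.8 CPM, -1.01 ± 0.20, adjusted p = 0.00124), as was the histone demethylase gene Kdm3a (-0.58), whereas Mif (0.29) and Fam162a (0.25) were higher. Under LPS, Loxl2 (0.45) and Rora (0.33) rose and Mxi1 (-0.55) fell, the Rora call being lost in 12 of the 15 fits without 1 library. Against LPS, Mxi1 (0.55) and Mif (0.25) rose with Rg1 plus LPS and Rora (-0.80) and Loxl2 (-0.75) fell. With the length trend removed Mif was at -0.12 against LPS and 0.0016 against control, and Fam162a at -0.021 against control. In the pentose phosphate pathway, which branches from glucose 6-phosphate, the smallest p of 7 genes under LPS was that of G6pdx (-0.18 ± 0.08, adjusted p = 0.112), so none passed with edgeR, and at an unadjusted p of 0.05 G6pdx was the only 1 of the 7. With DESeq2 its adjusted p was 0.105. Against LPS, Tkt (0.20 ± 0.05, adjusted p = 0.00376) and Pgls (0.33 ± 0.09, adjusted p = 0.00575) rose with Rg1 plus LPS, and against control Pgls (0.39). The Pgls differences from LPS and control were 0.07 (adjusted p = 0.492) and 0.17 (adjusted p = 0.0700) with the length trend removed.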

How the data were processed

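RNA was measured as poly(A)-selected libraries of primary mouse astrocytes, 15 in all, 5 per group. The authors deposited read counts per gene and FPKM values for each library; counts were used as deposited. Build GRCm38 (mm10) is named in the submitters' processing notes; which aligner and counter were run, and whether strand was used, is not stated. The deposited FPKM values served for levels between genes, and 37 damaged lines in each FPKM file were dropped. Counts were tested with edgeR 4.0.16 (quasi-likelihood, TMM scaling, filterByExpr) in R 4.3.3, with all 15 libraries in 1 fit and Benjamini-Hochberg adjustment over 15362 genes; calls are adjusted p under 0.05. The test was tried on simulated data. Alternatives were DESeq2 1.42.0, limma 3.58.1 (voom, and FPKM plus 0.1 or 1), other scalings and filters, a 2-group fit, each library left out, a replicate block and removal of the gene length trend. Rg1 plus LPS replicates 1 and 4 were left out together after seeing the data. Values in every library are given for members called with a log2 change of at least 0.58 in any comparison and for Hif1a, Epas1 and Slc2a1; from each pathway list up to 3 genes per direction are named in order of adjusted p, except 1 gene that is not reported here. Members and lists were chosen with earlier results of these data known. Replicate numbers were not treated as pairs.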

Additional observations from a re-analysis of the deposited data

Results flagged for a closer look

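Each member's CPM was checked within each group of 5 libraries for a highest or lowest library far from the rest. Of 105 such groups 2 stood out, where chance flags about 1 in 20. Pfkl was 86.0 CPM in control replicate 4, below the 90.4 to 91.1 CPM of the other 4 control libraries. Pdk1 was 23.5 CPM in LPS replicate 3, above the 16.1 to 17.7 CPM of the other 4 LPS libraries.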

How the results depend on the processing

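Of the 11, 15 and 13 members called in LPS against control, Rg1 plus LPS against LPS, and Rg1 plus LPS against control, 7, 8 and 9 were called under every one of the 27 alternative fits. Leaving out 1 library gave 7 to 17, 11 to 18 and 12 to 14 called members, the 7 coming without LPS replicate 1 and the 17 without LPS replicate 3. The other fits gave 10 to 16, 11 to 19 and 12 to 14. Removing the length trend reversed the sign, in Rg1 plus LPS against LPS, for Tpi1 (-0.029), Mif (-0.12, adjusted p = 0.0457), Mpc2 (-0.018) and Pfkfb2 (0.012), and against control for Fam162a (-0.021). Leaving out Rg1 plus LPS replicates 1 and 4, chosen after seeing the data, reversed Gbe1 against LPS (-0.59). Total counts of 34.2 M to 41.8 M leave members near 1 CPM, such as Slc16a3, with the widest relative spread from counting.

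With the replicate number as a block, 16, 15 and 14 members were called. The block added Egln3, Gys1, Pdk1, Pfkm and Pygb under LPS and Eno1 and Pfkm in Rg1 plus LPS against control (adjusted p = 0.0214 to 0.0461), ended the Slc16a3 call against control, and changed no other member's call. Same-numbered LPS and Rg1 plus LPS libraries deviated together with correlations of 0.05 to 0.42 (median 0.37), above 0.1 in 4 of 5 pairs. Differently numbered libraries of these groups had -0.48 to 0.41 (median -0.09). The same-numbered pairs with control were above 0.1 in 1 of 5. The labels do not say that equal numbers mark a shared culture, so the numbers were not taken as pairing. Pairing between LPS and Rg1 plus LPS libraries remains possible.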
